A study of Mus musculus with 21 samples.

Results

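Collagens are the trimeric proteins that give the extracellular matrix its tensile strength, and in the mouse their chains are encoded by a family of genes named Col, a type number, the letter a and a chain number. The genes described here are all those whose symbol has that whole form, except Col4a1 and Col4a2, the basement membrane pair that early embryonic cells make in quantity. The rule found 42 genes among the 53796 listed in each expression table, and 44 with Col4a1 and Col4a2. By class they comprise 11 fibril-forming chains, 9 fibril-associated chains, 7 network-forming chains, 6 chains of the beaded filament type, 4 transmembrane chains, 2 multiplexins, 1 anchoring fibril chain and 2 others.

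The RNA came from mouse embryonic stem (ES) cells of the V6.5 strain, a line derived from the early embryo. The study asked about the mitotic kinase Cdk1 and about Dot1l, the methyltransferase that modifies the core of histone H3. There were 5 groups of 3 libraries. The first held untreated ES cells of the Cdk1as/as genotype. The next pair held wild-type cells given a control guide RNA and Dot1l knockout (KO) cells, both untreated and named LIF after leukemia inhibitory factor. The last pair held the same control and KO genotypes after differentiation: plating on gelatin in serum-free N2B27 medium, 2 days of culture, then 24 h in medium with Wnt3a at 50 ng/ml, a Wnt ligand, and activin A at 10 ng/ml, a Nodal-like ligand. The labels call the cells of all 5 groups ES cells. Maintenance culture used a layer of inactivated mouse embryonic fibroblasts in serum with LIF. Whether the feeder layer was removed before RNA was taken from the untreated cells, whether the KO cells were 1 clone or a pool, and whether the 3 libraries of a group were separate cultures is not stated in the labels, so p-values measure only the spread between these libraries.

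Fibril-forming collagens such as types I, III and V are assembled by fibroblasts and other mesenchymal cells into banded fibrils, and fibril-associated collagens such as type IX decorate them. Type XVIII is a basement membrane proteoglycan of epithelia and endothelia, and the fragment endostatin is cut from its end. Chains are hydroxylated, folded with dedicated chaperones in the endoplasmic reticulum, secreted, trimmed and crosslinked, so a collagen message alone is not a matrix. A low collagen signal in an ES cell culture can come from the cells themselves or from feeder fibroblasts carried into the lysate. In bulk RNA, fewer cells of a type and less RNA per cell cannot be told apart.

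Upstream sequence is shown for 6 of the 7 genes that passed the test of KO against control under Wnt3a and activin A, where 49.1% of all tested genes passed. They are shown so that the letters upstream of the genes that rose can be read beside those of the genes that fell. RefSeq promoter windows on GRCm38.p6 were found for 33 of the 42 genes. Each line below holds the 250 bases before an annotated start, 5′ to 3′ on the gene's own strand. Capitals mark matches on either strand to 5 short motifs. The first is CCAAT, which on the other strand reads as the letters ATTGG. The second is GGGCGG, whose other strand gives the letters CCGCCC. The others are CAGACA, read on the other strand as TGTCTG, the box TATAAA, which on the other strand is TTTATA, and the motif CTTTGAT, with ATCAAAG on its other strand. The windows are chr6:4505368-4505617 on the plus strand for Col1a2, chr1:45311288-45311537 plus for Col3a1, chr4:63215162-63215411 plus for Col27a1, chr10:61979109-61979358 minus for Col13a1 and chr4:121039316-121039565 plus for Col9a2. Col18a1 has 2 starts, with windows at chr10:77113706-77113955 and chr10:77166531-77166780, both minus.
Col1a2: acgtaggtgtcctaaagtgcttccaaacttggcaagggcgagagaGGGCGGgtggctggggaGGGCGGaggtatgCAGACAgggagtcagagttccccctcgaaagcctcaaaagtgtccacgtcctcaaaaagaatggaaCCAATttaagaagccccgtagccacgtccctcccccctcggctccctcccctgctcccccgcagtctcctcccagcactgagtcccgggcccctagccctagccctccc
Col3a1: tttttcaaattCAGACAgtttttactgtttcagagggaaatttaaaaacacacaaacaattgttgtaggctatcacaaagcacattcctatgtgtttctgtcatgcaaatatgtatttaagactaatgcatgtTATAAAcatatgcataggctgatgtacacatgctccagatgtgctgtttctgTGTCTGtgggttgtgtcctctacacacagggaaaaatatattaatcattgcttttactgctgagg
Col27a1: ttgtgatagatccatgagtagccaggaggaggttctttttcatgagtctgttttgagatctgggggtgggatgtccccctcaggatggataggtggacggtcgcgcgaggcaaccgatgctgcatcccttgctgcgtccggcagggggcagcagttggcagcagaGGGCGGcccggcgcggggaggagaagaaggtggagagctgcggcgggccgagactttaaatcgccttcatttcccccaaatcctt
Col13a1: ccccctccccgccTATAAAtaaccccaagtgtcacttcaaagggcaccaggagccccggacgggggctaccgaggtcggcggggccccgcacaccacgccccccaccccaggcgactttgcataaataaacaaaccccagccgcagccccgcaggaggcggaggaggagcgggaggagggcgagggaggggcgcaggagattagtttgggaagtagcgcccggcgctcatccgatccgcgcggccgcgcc
Col9a2: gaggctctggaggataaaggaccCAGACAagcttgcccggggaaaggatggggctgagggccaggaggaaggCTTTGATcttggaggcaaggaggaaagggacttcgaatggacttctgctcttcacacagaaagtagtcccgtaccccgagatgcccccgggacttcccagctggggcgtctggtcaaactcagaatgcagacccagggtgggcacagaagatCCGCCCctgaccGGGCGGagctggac
Col18a1, start at the first window: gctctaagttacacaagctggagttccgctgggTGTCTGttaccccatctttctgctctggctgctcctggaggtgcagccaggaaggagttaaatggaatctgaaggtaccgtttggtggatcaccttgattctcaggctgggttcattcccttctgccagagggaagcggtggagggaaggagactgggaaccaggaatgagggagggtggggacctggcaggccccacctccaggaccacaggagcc
Col18a1, start at the second window: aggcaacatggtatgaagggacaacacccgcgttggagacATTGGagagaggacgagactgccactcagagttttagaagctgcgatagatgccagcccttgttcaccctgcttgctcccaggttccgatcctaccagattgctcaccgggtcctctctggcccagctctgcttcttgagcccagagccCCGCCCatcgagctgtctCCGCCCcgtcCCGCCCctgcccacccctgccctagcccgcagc

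The windows of the 4 genes that rose had no motif common to all. The Col1a2 window held 2 matches to GGGCGG, a letter string bound by Sp-family factors, and 1 each to CCAAT and CAGACA. Col3a1 held 2 matches to CAGACA, a string known from Smad-responsive promoters, and 1 to TATAAA, with a GC content of 35.2% against a median of 52.4% over all windows. Col27a1 held 1 GGGCGG and Col13a1 held 1 TATAAA. Of the 2 genes that fell, Col9a2 was the only one of the 33 genes with CTTTGAT, the string read by Tcf and Lef factors, and it also held 2 GGGCGG and 1 CAGACA. The first Col18a1 window held 1 CAGACA, and the second held 3 GGGCGG and 1 CCAAT. Over all 32851 windows, GGGCGG was present in 32.7%, CCAAT in 33.8%, CAGACA in 17.1%, TATAAA in 12.4% and CTTTGAT in 3.21%. Among the 33 genes the counts were 20, 11, 9, 5 and 1 in the same order, a gene with 2 starts counting once. By window, the unit of those shares, the counts were 21, 11, 9, 5 and 1 of 36. A match describes letters in a window and does not show a bound site.

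The deposited values are FPKM, fragments scaled by transcript length and by mapped fragments in the library, so they can be compared between genes within a library. The count depth behind them is unknown. The 3 tables may have been scaled separately, so levels in ES cells, in LIF and after differentiation are set side by side with no test. Dot1l served as the check of the labels. In LIF it read 21.2, 20.6 and 24.6 FPKM in the control libraries and 11.2, 8.90 and 10.8 in the KO libraries, and after differentiation 18.5, 17.7 and 19.1 against 13.5, 12.9 and 14.7. No KO library reached a control library, and the labels do not say which part of the gene was targeted. The log2 difference was -1.04 ± 0.11 (SE, adjusted p = 0.0178, limma) in LIF and -0.40 ± 0.07 (adjusted p = 0.00462, limma) after differentiation. Leaving out any 1 library raised the adjusted p in LIF to between 0.0557 and 0.0781, with every difference still negative. Fold changes throughout are KO minus control on log2(FPKM + 1), which understates changes of low genes, with limma's moderated test and Benjamini-Hochberg adjustment over all genes tested. The ES cell identity list, with Pou5f1, Nanog, Sox2 and 5 others, summed to between 4900 and 4990 FPKM in the LIF controls and between 1190 and 1300 in the differentiated KO libraries. After differentiation that sum was mostly Pou5f1, with means of 1850 ± 79.7 FPKM in the controls and 1110 ± 52.5 in the KO (SD, n = 3). Some other ES cell genes were then low: Esrrb had means of 2.0 and 1.23 FPKM against 217 in the LIF controls, and Sox2 had 6.49 and 7.21 against 212. Nanog and Dppa5a were lower than in LIF but not low. Nanog had 79.8 and 56.6 against 155, and Dppa5a had 148 and 73.1 against 2300. The label of ES cells was borne out by these markers in the untreated groups, while Esrrb and Sox2 were far lower in the differentiated ones.

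Most of the 42 genes were low. A mean of at least 1 FPKM was reached by 17 in ES cells, 12 in the LIF controls, 14 in the LIF KO, 14 in the differentiated controls and 16 in the differentiated KO. Altogether 21 genes reached it in some group and 21 in none, and Col28a1, Col19a1 and Col4a3 stayed below 0.1 FPKM in each group mean. Only Col18a1 had a mean of at least 10 in any group. That gene alone held 57.0% of the summed FPKM of the 42 genes in ES cells, 77.1% in the LIF controls, 72.9% in the LIF KO, 61.6% in the differentiated controls and 37.6% in the differentiated KO.

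**Figure D1:**
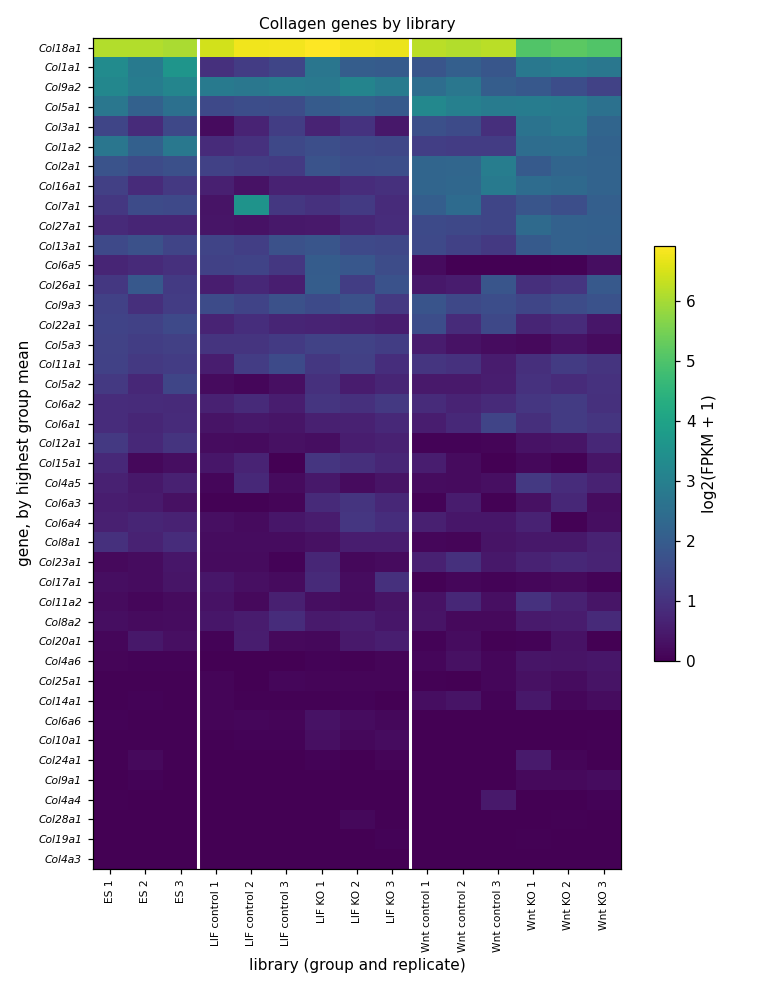
All 42 collagen genes (rows, ordered by their highest group mean) in the 15 libraries (columns), coloured by log2(FPKM + 1). Col18a1 stands above every other gene in every library, and the lowest rows are near 0 throughout.

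Col18a1 encodes the chain of type XVIII collagen. Its level was 68.5, 69.7 and 65.0 FPKM in ES cells, 86.9, 109 and 112 in the LIF controls, and 121, 109 and 105 in the LIF KO. Under Wnt3a and activin A it was 73.0, 69.2 and 73.1 in the controls and 31.8, 35.6 and 31.9 in the KO. The LIF groups overlapped, while every differentiated KO library lay below every differentiated control. The log2 difference was 0.13 ± 0.11 (SE, adjusted p = 0.532, limma) in LIF and -1.10 ± 0.06 (adjusted p = 9.35e-05, limma) after differentiation. The difference between the 2 effects was -1.22 ± 0.13 (adjusted p = 7.91e-05, limma interaction over 12 libraries). Col18a1 spans chr10:77032240-77166548 and its annotated locus overlaps that of Slc19a1, a folate carrier gene, so the 2 entries could share reads. Slc19a1 itself lay between 9.66 and 11.2 FPKM in the differentiated controls and between 10.5 and 12.7 in the KO, with overlap. The other multiplexin, Col15a1, did not exceed 1.10 FPKM in any library.

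Of the fibril-forming chains, 4 rose in the differentiated KO. Col1a1 (chr11:94936223-94953042) and Col1a2 encode the chains of type I collagen, the main protein of skin, bone and tendon. Col1a1 read 2.54, 3.30 and 2.64 FPKM in the differentiated controls and 5.82, 6.51 and 5.76 in the KO, without overlap. In LIF it read 0.948, 1.34 and 1.71 in the controls and 5.55, 3.14 and 2.97 in the KO, again without overlap. The increase after differentiation was 0.88 ± 0.11 (SE, adjusted p = 0.00142, limma). In LIF the fitted difference was similar in size, 1.04 ± 0.24, but missed the threshold (adjusted p = 0.0693, limma). The difference between the 2 effects was -0.16 ± 0.27 (adjusted p = 0.674, limma), an SE that leaves its size poorly fixed.

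Col1a2 (chr6:4504813-4541544) read 1.44, 1.36 and 1.36 FPKM in the differentiated controls, the tightest group of the gene, and 4.59, 4.68 and 3.52 in the KO. This rise of 1.13 ± 0.13 passed the test (adjusted p = 0.000904, limma). The LIF libraries overlapped, at 0.813, 0.984 and 1.83 in the controls and 2.19, 1.91 and 1.77 in the KO (0.45 ± 0.21, adjusted p = 0.252, limma). The difference between conditions, 0.69 ± 0.24, passed narrowly (adjusted p = 0.0422, limma). It missed the threshold without LIF KO replicate 1, 2 or 3, without LIF control replicate 3 and without any 1 of the 6 differentiated libraries apart from KO replicate 3, with adjusted p between 0.0517 and 0.0912. The ratio of Col1a1 to Col1a2, which in fibril assembly supply chains to the same trimer, lay between 0.931 and 1.36 in the LIF controls and between 1.65 and 2.53 in the LIF KO. After differentiation it was higher in the controls, 1.77 to 2.43, than in the KO, 1.27 to 1.63.

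Col3a1 (chr1:45311537-45349706) encodes type III collagen, which is laid down with type I in soft tissue. Its level was 2.25, 2.01 and 0.905 FPKM in the differentiated controls and 5.20, 5.80 and 3.81 in the KO. The lowest KO library stood above the highest control. The gene rose by 1.15 ± 0.25 (adjusted p = 0.0103, limma). In LIF its mean was below the minimum for testing, with 0.160, 0.626 and 1.38 in the controls overlapping 0.627, 1.03 and 0.359 in the KO.

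Col27a1 (chr4:63214003-63334991) encodes a fibril-forming chain of developing cartilage. It read 0.302, 0.253 and 0.359 FPKM in the LIF controls and 1.96, 1.85 and 1.71 in the differentiated controls. The differentiated KO libraries read 4.30, 3.45 and 3.40. The increase of 0.73 ± 0.12 passed the test (adjusted p = 0.00402, limma). Its locus holds the microRNA gene Mir455, and whether the counting used strand is not stated in the labels.

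Col5a1 and Col2a1 had fitted differences of opposite sign in the 2 conditions. Col5a1 encodes the type V chain that starts collagen fibrils and limits their width. In LIF it read 1.87, 2.14 and 2.05 FPKM in the controls and 3.00, 3.30 and 2.91 in the KO, without overlap, and after differentiation 8.40, 7.10 and 6.34 against 6.57, 6.28 and 5.01, with overlap. Neither difference passed alone, at 0.43 ± 0.11 (adjusted p = 0.085, limma) and -0.25 ± 0.14 (adjusted p = 0.177, limma). The difference between them did, at -0.68 ± 0.17 (adjusted p = 0.009, limma). Col2a1, the chain of cartilage type II collagen, read 1.53, 1.38 and 1.26 in the LIF controls and 2.39, 2.09 and 2.16 in the LIF KO. The differentiated controls read 3.79, 3.87 and 6.67 and the differentiated KO 2.92, 3.75 and 3.60. Both pairs were free of overlap, with the KO above in LIF and below after differentiation. The single effects were 0.43 ± 0.13 (adjusted p = 0.112, limma) and -0.35 ± 0.21 (adjusted p = 0.211, limma), and their difference was -0.78 ± 0.24 (adjusted p = 0.028, limma). That call for Col2a1 was lost without LIF KO replicate 1, LIF control replicate 2, LIF control replicate 3 or differentiated KO replicate 1, with adjusted p between 0.0515 and 0.065.

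The remaining named fibril-forming chains were low. Col5a3 lay between 1.05 and 1.28 FPKM in the LIF controls and between 1.40 and 1.59 in the LIF KO, a gap of 0.25 ± 0.14 that did not pass (adjusted p = 0.338, limma), and at or below 0.436 after differentiation. Col11a1, a minor fibril chain of cartilage, ranged from 0.433 to 1.92 FPKM over the 12 LIF and differentiated libraries. Col5a2, the partner of Col5a1, was 24.6 kb from Col3a1 and below the minimum for testing in both tables. It read 0.148, 0.0788 and 0.229 in the LIF controls against 0.957, 0.432 and 0.635 in the KO, and 0.378, 0.398 and 0.478 in the differentiated controls against 0.969, 0.814 and 0.972 in the KO. All KO libraries of Col5a2 thus stood above all controls in each condition.

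**Figure D2:**
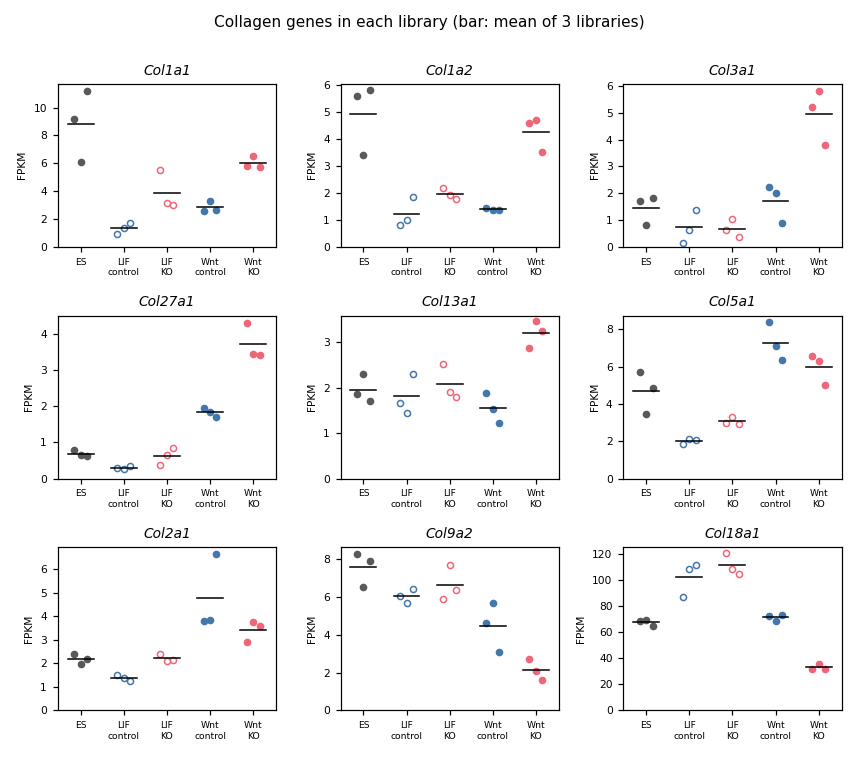
FPKM of 9 collagen genes in each library, with a bar at the mean of 3 libraries in each group (open points are LIF, filled coloured points the differentiated cells, grey points ES cells). Col1a1, Col1a2, Col3a1, Col27a1 and Col13a1 are higher in the differentiated KO than in its control, while Col9a2 and Col18a1 are lower.

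Among the fibril-associated chains, Col9a2 had the highest level. It encodes a chain of type IX collagen, which coats type II fibrils. It read 6.07, 5.66 and 6.44 FPKM in the LIF controls and 5.91, 7.67 and 6.36 in the KO, with overlap (0.11 ± 0.11, adjusted p = 0.589, limma). After differentiation it read 4.62, 5.67 and 3.09 in the controls and 2.72, 2.09 and 1.59 in the KO, without overlap. The decrease was -0.79 ± 0.23 (adjusted p = 0.0294, limma), and the difference between conditions was -0.90 ± 0.26 (adjusted p = 0.0207, limma). The decrease was no longer called without differentiated control replicate 1 or 2 or without KO replicate 2 or 3, with adjusted p between 0.0749 and 0.0841. Col9a3, its partner chain, did not follow it: 2.5, 1.85 and 2.1 in the differentiated controls against 1.72, 2.06 and 2.37 in the KO (-0.05 ± 0.15, adjusted p = 0.81, limma). The third chain, Col9a1, was listed at 0 in all 6 LIF libraries and in the 3 differentiated controls, and read 0.128, 0.134 and 0.162 in the differentiated KO. Col9a3 shares its locus with Tcfl5, whose level of 18.7 to 31.2 FPKM makes the Col9a3 values uncertain.

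Col16a1, a fibril-associated chain of several connective tissues, stood at separate levels in the 2 tables, which are set side by side without a test. It lay between 0.261 and 0.934 FPKM in the 6 LIF libraries and between 3.61 and 6.11 in the 6 differentiated ones. Controls and KO overlapped after differentiation (-0.12 ± 0.18, adjusted p = 0.595, limma). Col22a1, a chain of tissue junctions, read 2.11, 0.792 and 1.83 in the differentiated controls and 0.643, 0.806 and 0.347 in the KO (-0.66 ± 0.26, adjusted p = 0.0812, limma), and it was tested only through its control level. Without differentiated control replicate 2, the library that overlaps the KO, its difference was -0.90 (adjusted p = 0.0204, limma).

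Transmembrane collagens sit in the plasma membrane. Of the 4, only Col13a1, a chain found at cell contacts and neuromuscular junctions, had a mean above 1 FPKM. It read 1.89, 1.53 and 1.23 in the differentiated controls and 2.87, 3.48 and 3.26 in the KO, without overlap, and rose by 0.73 ± 0.14 (adjusted p = 0.00745, limma). With a trend of fold change on gene span and level removed, its increase was 0.42 (adjusted p = 0.0629, limma). In LIF it read 1.67, 1.45 and 2.31 against 2.53, 1.91 and 1.80, with overlap (0.14 ± 0.17, adjusted p = 0.677, limma).

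The beaded filament chains of type VI collagen, which forms a pericellular mesh, had higher values in the KO libraries than in the controls in LIF. Col6a5 read 1.54, 1.65 and 1.17 FPKM in the controls and 3.08, 2.71 and 2.03 in the KO (0.55 ± 0.17, adjusted p = 0.117, limma), and at most 0.196 after differentiation. Col6a3 read 0.0358, 0.0247 and 0.0754 in the LIF controls and 0.778, 1.06 and 0.704 in the KO. Each of the 6 genes of this class had all 3 LIF KO libraries above all 3 controls, an arrangement found in 8.77% of all genes not listed at 0 throughout. The summed FPKM of the class was 2.71, 3.04 and 2.46 in the controls against 6.20, 6.59 and 5.71 in the KO. This arrangement was not particular to the class. The 11 fibril-forming chains summed to 7.57, 9.32 and 12.5 in the LIF controls and 18.1, 15.8 and 14.3 in the KO, also without overlap. Col26a1 and Col28a1, the genes classed as others, had all LIF KO libraries above all controls too. Of the type VI genes, only Col6a5 reached the minimum for testing in LIF, so 5 of the 6 have no test there. Col6a4, Col6a5 and Col6a6 are neighbours, with gaps of 28.8 and 27.9 kb, and Col6a1 and Col6a2 lie 85.2 kb apart. After differentiation the class sum was 2.02 to 2.87 in the controls and 2.6 to 3.39 in the KO, with overlap. Col6a1 was tested there through its KO level alone (0.14 ± 0.26, adjusted p = 0.689, limma), and Col6a2 read 0.622 to 0.821 in the controls and 0.941 to 1.30 in the KO.

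Col7a1, the anchoring fibril chain that ties epidermis to dermis, was dominated by 1 library. It read 0.288, 10.8 and 1.17 FPKM in the LIF controls and 0.977, 1.25 and 0.807 in the LIF KO, so control replicate 2 alone set the control mean of 4.09 ± 5.84 (SD, n = 3). The fitted difference of -0.68 ± 0.79 did not pass (adjusted p = 0.644, limma), and without that library the gene fell below the minimum for testing. The microRNA gene Mir711 lies in the same locus. Col26a1, a chain of the testis and ovary, read 0.467, 0.697 and 0.485 in the LIF controls and 3.14, 1.39 and 2.34 in the LIF KO, without overlap. Its difference of 1.05 ± 0.24 did not pass (adjusted p = 0.0651, limma), and it was tested in LIF only through its KO level. After differentiation its libraries scattered, at 0.374, 0.448 and 2.56 against 0.911, 1.11 and 2.82.

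Network-forming chains other than Col4a1 and Col4a2 were all below 1 FPKM in each group mean. Among them Col4a5 and Col4a6, which lie 1.3 kb apart on the X chromosome and build the basement membrane of kidney and muscle, were picked out after their values were seen. Col4a5 read 0.165, 0.142 and 0.217 in the differentiated controls and 1.22, 0.847 and 0.578 in the KO. Col4a6 read 0.0807, 0.233 and 0.0794 against 0.308, 0.294 and 0.349. Both had every KO library above every control after differentiation. For comparison, Col4a1 read 141, 140 and 137 FPKM in the differentiated controls and 278, 279 and 284 in the KO (1.00 ± 0.04, adjusted p = 5.19e-05, limma).

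Taken as counts, 13 of the 42 genes were tested in LIF and 0 passed, where 4.41% of all 13153 tested genes passed. By limma's unadjusted p under 0.05, 5 of the 13 passed, against 24.5% of all genes, and 8 of the members passed by the q-values in the authors' deposited table. Under Wnt3a and activin A, 15 were tested and 7 passed, where 49.1% of all 12770 tested genes passed. Of the 7, Col1a1, Col1a2, Col3a1, Col13a1 and Col27a1 rose and Col18a1 and Col9a2 fell, with 19.6% of all genes rising and 29.5% falling. A share of 7 in 15 is close to that background, so passing the test did not set collagen genes apart there. The median log2 difference of the tested members was 0.25 in LIF against -0.07 for all genes, and -0.05 against -0.08 after differentiation. Removing the trend with gene span and level changed the split after differentiation from 5 higher and 2 lower to 4 higher and 4 lower. The difference between conditions was tested for 10 genes and passed for 5, where 38.3% of all 11783 genes passed. The effect was more negative after differentiation for Col18a1, Col9a2, Col2a1 and Col5a1 and more positive for Col1a2, where 20.7% of all genes were more negative and 17.6% more positive. The 2 effects come from separate tables, and each was taken within its own table.

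**Figure D3:**
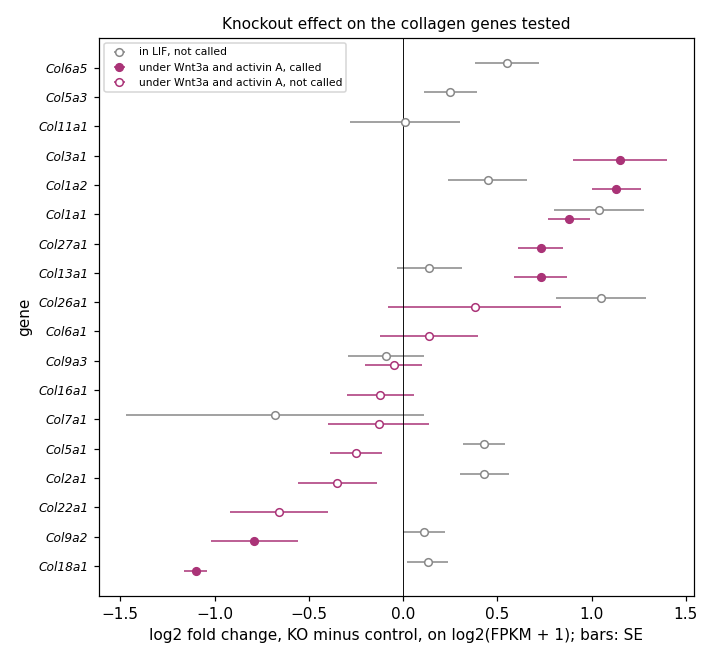
Log2 difference, KO minus control on log2(FPKM + 1), with SE bars, for each collagen gene tested in LIF (grey) or under Wnt3a and activin A (purple, filled where the adjusted p is under 0.05). None of the LIF values is filled, and the filled values comprise 5 above and 2 below 0.

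The position of whole groups can also be read for genes too low to test. In LIF, 41 of the 42 genes were not listed at 0 throughout. All KO libraries lay above all controls for 20 of them and below for 0, where 8.77% of the 26855 genes not at 0 throughout lay above and 12.1% below. After differentiation the KO lay above for 15 of 42 genes and below for 3, where 17.8% of genes lay above and 19.2% below. Values under 0.1 FPKM enter these counts, so a gene such as Col28a1, at 0 in all LIF controls, counts on very little signal. Without any minimum level, Col6a3 passed in LIF (0.82 ± 0.09, adjusted p = 0.0361, limma), where 0.964% of all genes passed. After differentiation 10 members passed in that setting, where 22.6% of all genes passed. Col9a2 was lost (adjusted p = 0.0697, limma), while Col5a2 (0.44, adjusted p = 0.0209), Col9a1 (0.19, adjusted p = 0.00726), Col4a5 (0.67, adjusted p = 0.0199) and Col25a1 (0.25, adjusted p = 0.029) passed as well by limma. In the authors' deposited table for LIF, 8 of the 25 members with a completed test had q under 0.05, and all 8 were higher in the KO, where 3.2% of all genes there were higher and 3.54% lower. These were Col1a1, Col2a1, Col5a1, Col5a2, Col5a3, Col6a2, Col6a3 and Col26a1. In the authors' deposited table for the differentiated cells, 8 of 19 were higher and 3 lower, against 19.8% and 25.3% of all genes. Col4a5, Col5a2 and Col6a2 were higher and Col22a1 was lower in that deposited table in addition to the 7 genes named from limma.

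In the untreated Cdk1as/as ES cells the 11 fibril-forming chains summed to 29.9, 19.9 and 31.3 FPKM, beside 7.57, 9.32 and 12.5 in the LIF controls, in values set side by side without a test. Col1a1 read 9.15, 6.12 and 11.2 FPKM, Col1a2 read 5.60, 3.40 and 5.79, and Col5a1 read 5.73, 3.47 and 4.87, all above the LIF controls. Col3a1, Col11a1 and Col11a2 overlapped the LIF controls, and the mean of Col11a2 was lower in ES cells (0.127) than there (0.306). Replicate 2 was the lowest of the 3 for Col1a1, Col1a2 and Col5a1. It was also the lowest for 13 of the 20 members named with all values, and for 8 of the 9 fibril-forming ones among them. The mitochondrial message mt-Nd1 read 3590 FPKM in that library against 1820 and 1870 in the other 2, and whether this bears on the collagen values was not tested. Genotype, table and culture cannot be told apart between these cells and the LIF controls.

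Markers of fibroblasts were read in the same libraries, since feeder fibroblasts make types I, III, V and VI collagen. Of 12 markers that are not collagens, Lum, a proteoglycan of connective tissue, was listed at 0 in 12 of the 15 libraries and reached at most 0.142 FPKM in the differentiated KO. Fap, a surface protease of activated fibroblasts, was at most 0.0921. Dcn, the proteoglycan decorin that fibroblasts make in bulk, was at 0 in all LIF controls, at most 0.0373 in the LIF KO, 0.145 to 0.527 in the differentiated controls and at most 0.109 in the differentiated KO. In the ES cells, the group with the highest Col1a1, Dcn read 0.0348, 0.235 and 0.205, and replicate 2, the library lowest in Col1a1, had the highest of the 3. Fap and Thy1 were also highest in replicate 2. Postn, Prrx1, Twist2, Pdgfrb, Cdh11, Mmp2, Fbln2 and Loxl1 were lowest in replicate 2, as Col1a1 was. Lum, Fap and Dcn each stayed at or below 0.527 FPKM in all 15 libraries. These 3 were picked out after their values were seen, and other markers were higher. In the LIF controls and LIF KO, Thy1 had means of 16.9 and 23.5 FPKM and Mmp2 had 10.4 and 11.9. Fbln2 had 4.74 and 7.25, and Loxl1 had 2.7 and 2.96. All LIF KO libraries lay above all controls for Thy1 and Fbln2 (adjusted p = 0.191 and 0.0547, limma), with overlap for Mmp2 and Loxl1. After differentiation Thy1 went the other way, with 16.2, 17.4 and 20.2 in the controls and 12.6, 13.1 and 16.0 in the KO, without overlap. That difference was -0.35 ± 0.12 (adjusted p = 0.0523, limma), and the difference between its 2 effects was -0.83 ± 0.24 (adjusted p = 0.0193, limma). Fbln2 rose there (0.71 ± 0.22, adjusted p = 0.0378, limma), and Mmp2 and Loxl1 overlapped.

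Values of 3 more markers are given beside those of the collagens. Prrx1 and Postn were below the minimum for testing and were picked out after their values were seen. Prrx1, a mesenchymal transcription factor, read 0.195, 0.107 and 0.137 FPKM in the LIF controls against 0.395, 0.343 and 0.382 in the KO, and 0.0182, 0.0158 and 0.0754 against 0.383, 0.349 and 0.317 after differentiation. Postn, a matricellular protein, was at most 0.282 in the LIF controls and 0.311 to 0.747 in the LIF KO, and highest in the ES cells, at 1.67, 0.995 and 1.37. Its lowest ES cell library was replicate 2, as for Col1a1. Cdh11, a mesenchymal cadherin, rose after differentiation from 0.437, 0.573 and 1.30 to 4.61, 6.12 and 7.41 (2.00 ± 0.24, adjusted p = 0.00101, limma). With a control mean of 0.77 FPKM, it was tested there only through its KO level. In LIF it was 0.128, 0.320 and 0.195 in the controls and 0.341, 0.244 and 0.569 in the KO, with overlap.

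Over the 12 markers, 5 were tested in LIF and 0 passed by limma, with 2 at an unadjusted p under 0.05 and 0 in the authors' deposited table. After differentiation 6 were tested, and Cdh11 and Fbln2 were higher and 0 lower by limma, Cdh11 being tested through its KO level alone. Their summed level was 32.0 to 42.6 FPKM in the LIF controls, 46.6 to 52.1 in the LIF KO, 32.9 to 40.4 in the differentiated controls, 37.1 to 47.9 in the differentiated KO and 39.4 to 43.4 in the ES cells. The sum did not overlap between control and KO in LIF and did overlap after differentiation. Thy1, Mmp2, Fbln2 and Loxl1 had a mean of at least 1 FPKM in all 5 groups, so 4 of the 12 are read at that level in each of these cultures. All KO libraries lay above all controls for 5 markers in LIF and 6 after differentiation, and below for 0 and 2 of the 12. Over all genes not listed at 0 throughout, these shares were 8.77% and 17.8% above and 12.1% and 19.2% below. The list counts that follow can be read against all tested genes, of which 4.41% passed in LIF, and 19.6% rose and 29.5% fell after differentiation. Of 16 broader matrix and contractile genes that fibroblasts share with other cells, 4 rose and 1 fell of 14 tested in LIF, and 4 rose and 6 fell of 14 after differentiation. Genes of early mesoderm, a source of mesenchyme, were higher in the differentiated KO for 7 of 9 tested, among them Mesp1 from 1.05, 0.914 and 0.957 to 11.6, 12.2 and 13.0 FPKM. Mesp1 and Msgn1, both among the 7, were tested only through their KO level, with control means of 0.975 and 0.372 FPKM. In LIF 0 of 4 tested mesoderm genes passed by limma, with 1 at an unadjusted p under 0.05 and 0 in the authors' deposited table. Genes of extraembryonic endoderm rose for 7 of 10 tested after differentiation and 1 of 9 in LIF. The part of feeder cells or of mesenchymal cells formed in the culture in the collagen differences was not tested.

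**Figure D4:**
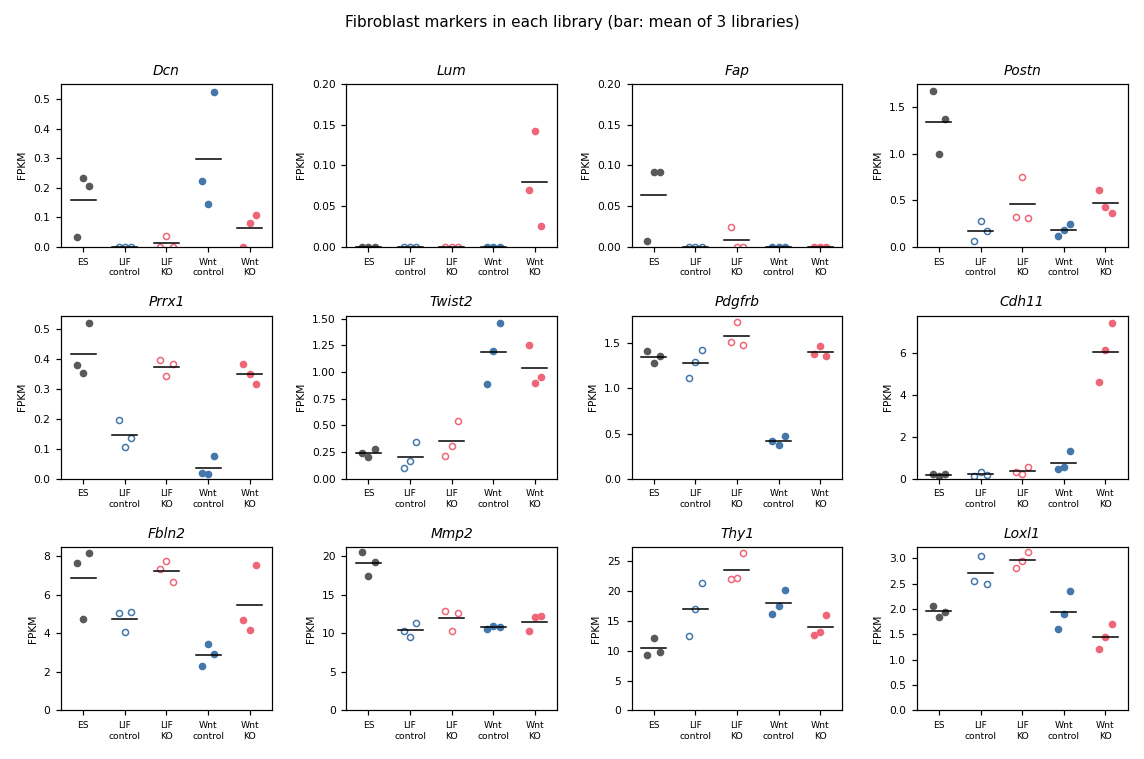
FPKM of 12 fibroblast markers that are not collagens in each library, each panel on its own linear axis from 0, with a bar at the mean of 3 libraries. Dcn, Lum and Fap stay at or below 0.527, while Thy1 and Mmp2 each have a mean of at least 10.4 in all 5 groups. Cdh11 is high in the differentiated KO alone.

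Genes that fold, modify, export and crosslink collagen were taken as a list of 28. After differentiation 22 were tested, of which 3 rose and 5 fell, where 19.6% of all tested genes rose and 29.5% fell, with a list median of -0.06 against -0.08 for all genes. Serpinh1, the collagen-specific chaperone, fell from 290, 273 and 278 FPKM to 205, 220 and 231 (-0.36 ± 0.06, adjusted p = 0.00289, limma). P4hb, the disulfide isomerase subunit of prolyl hydroxylase, fell from 1150, 1090 and 1160 to 592, 641 and 648 (-0.85 ± 0.05, adjusted p = 9.07e-05, limma). Ppib, a prolyl isomerase, fell from 546, 563 and 562 to 305, 316 and 331 (-0.81 ± 0.04, adjusted p = 7.85e-05, limma), and Crtap and Plod3 fell as well. The folding genes that fell serve many collagen types, and P4hb and Ppib serve other secreted proteins too. Summed FPKM over all genes was also lower in the KO, at 759255 to 792381 against 1087970 to 1144370 in the differentiated controls. In proportion, Serpinh1, Crtap and Plod3 fell by less than this sum, and P4hb and Ppib fell by more. The falls are therefore stated for the deposited values, and no test was run on values rescaled to a common sum.

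The 3 that rose act on crosslinks or export. Lox, which oxidizes lysines for crosslinking, read 0.447, 0.919 and 0.528 FPKM in the differentiated controls and 2.30, 2.40 and 1.99 in the KO (0.99 ± 0.17, adjusted p = 0.00405, limma). Plod2, the telopeptide lysyl hydroxylase, rose from 11.9, 11.5 and 12.1 to 20.9, 20.2 and 22.8 (0.79 ± 0.07, adjusted p = 0.000317, limma). Mia3, needed to export bulky procollagen, rose by 1.16 ± 0.33 (adjusted p = 0.0287, limma). In LIF 21 of the 28 were tested, with Lox, P4ha1 and Serpinh1 higher and Pcolce and Pcolce2, enhancers of procollagen trimming, lower, where 4.41% of all tested genes passed. Lox rose there from 0.985, 0.763 and 0.917 to 2.30, 2.34 and 2.08 (0.78 ± 0.14, adjusted p = 0.038, limma). In both conditions Lox was tested only through its KO level, with control means of 0.889 FPKM in LIF and 0.632 after differentiation. On the deposited values Serpinh1 thus rose in LIF (0.32 ± 0.04, adjusted p = 0.0251, limma) and fell after differentiation. The difference of its effects was -0.67 ± 0.07 (adjusted p = 4.88e-05, limma), under the same limit of the lower summed FPKM in the differentiated KO. Of 9 collagen receptors, 3 were tested. Ddr1, a receptor tyrosine kinase for collagen, fell after differentiation from 38.5, 35.1 and 34.4 to 19.9, 22.8 and 21.4 (-0.73 ± 0.07, adjusted p = 0.000583, limma), and the integrin subunit Itgb1 fell by 0.23 (adjusted p = 0.0109, limma). Neither passed in LIF.

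**Figure D5:**
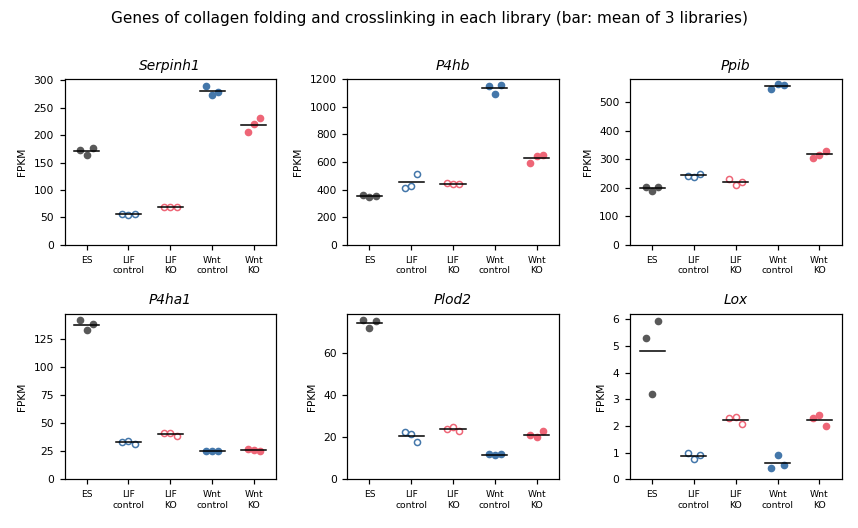
FPKM of 6 genes of collagen folding and crosslinking in each library, each panel on its own linear axis from 0, with a bar at the mean of 3 libraries. In the differentiated cells Serpinh1, P4hb and Ppib are lower and Plod2 and Lox higher in the KO than in the control.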

How the data were processed

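RNA-seq was analysed for 15 libraries in 3 deposited tables, with groups and replicate numbers from the sample titles. The deposited values, which the authors computed for each gene in each library, are taken as FPKM because the submitters' processing notes name Cufflinks 2.2.1 and Cuffdiff and no header states the unit. The KO tables also hold the authors' deposited p-value and q-value per gene. Per the submitters' processing notes STAR 2.5.4a was used on the series, and mm9 and GRCm38 are named. All 42 collagen genes overlap their GRCm38.p6 loci in RefSeq, so gene coordinates are those of GRCm38. How libraries were scaled, the strand setting and the annotation release are not stated in the labels. As FPKM divides by length and library size, changes in a few abundant genes shift the rest.

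Low values gave no usable steps of whole reads (22.6% to 33.1% of log2 ratios between libraries within 0.1 of the mode), so depth is unknown, count tests were not run and the precision of low genes rests on the 3 libraries per group. Mir6236 held 28.6% of summed FPKM in LIF KO replicate 3. The values of each KO table were fitted as log2(FPKM + 1) by limma-trend (limma 3.58.1 under R 4.3.3). Genes whose mean over the 6 libraries was under 1 FPKM were left out. Two-sided p-values were adjusted by the Benjamini-Hochberg method over every gene tested, and calls needed an adjusted p under 0.05. The difference between conditions was an interaction over 12 libraries for genes tested in both tables. The fit was tested on simulated data. The alternatives were pseudocount 0.1, no minimum level, a minimum of 2 FPKM, median-of-ratios and quantile scaling, no trend, removal of a trend with gene span and level, a replicate block, each library left out and the authors' q-values.

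Named with all values or ranges were the members that passed or had a group mean of at least 1 FPKM, up to 20 by highest group mean. Of each list, up to 4 genes that passed with the largest change were named, or for marker lists the defining markers with the highest level. Col4a5, Col4a6, Col6a3, Col8a1, Col9a1, Col10a1, Col12a1, Col15a1 and Col25a1 fall outside that rule and were named after their values were seen. So were the list genes Crtap, Plod3, Prrx1, Postn, Lum, Fap, Dcn, Twist2 and Pdgfrb. The members and lists were chosen with earlier results of these data known. Peak lists of the series were not used here.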

Additional observations from a re-analysis of the deposited data

Results flagged for a closer look

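The KO effect differed between the conditions, by limma's interaction test over 12 libraries, for 5 of the 10 collagen genes tested in both, where 38.3% of all genes tested differed. For each, the effect under Wnt3a and activin A minus that in LIF is given on the log2(FPKM + 1) scale. It was -1.22 for Col18a1, whose 3 differentiated KO libraries all lay below the controls, while the LIF groups overlapped. It was -0.90 for Col9a2, with the same arrangement. It was -0.78 for Col2a1 and -0.68 for Col5a1, both with all KO libraries above the controls in LIF. The value for Col1a2 was 0.69, with all KO libraries above the controls after differentiation and overlap in LIF. The tables may have been scaled separately, and each effect was taken within its own table.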

How the results depend on the processing

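For collagen genes called in LIF, 0 of 13 became 1 of 41 with no minimum level, where 0.964% of all genes passed. It became 8 of 25 by the authors' deposited q-values, where 3.2% of all genes were higher and 3.54% lower. The count stayed 0 in the other settings and with each library left out (0 to 0). After differentiation 7 of 15 became 11 of 19 by the authors' deposited q-values, where 19.8% of all genes were higher and 25.3% lower. With 1 library left out that count ranged from 6 to 7. For the difference between conditions, 5 became 3 with a mean of at least 2 FPKM, which tests 5 members, and ranged from 3 to 5 with 1 library left out, the lowest without LIF control replicate 3 or differentiated KO replicate 1. For Col1a2 that difference had adjusted p from 0.0709 to 0.109 with pseudocount 0.1, no minimum level, quantile scaling, the span and level trend removed or the replicate block.

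Replicate numbers did not pair the libraries: same-numbered control and KO libraries correlated at -0.003 to 0.043 in LIF and -0.012 to 0.062 after differentiation. With the replicate block 0 members were called in LIF, 7 after differentiation and 4 for the difference, and Dot1l in LIF had an adjusted p of 0.139. Over all genes in LIF the 580 calls, 126 of them higher, became 0 with the block, 1 to 40 with 1 library left out, 360 (164 higher) with median-of-ratios scaling, 269 (127 higher) with quantile scaling, 236 without a trend, 259 with no minimum level and 190 (105 higher) with the span and level trend removed. Col5a1 passed after differentiation as lower with that trend removed (-0.51, adjusted p = 0.0288), as did Col22a1 (-0.93).

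Directions reversed only among values that were not called. Col11a1 in LIF (0.01) was -0.11 with quantile scaling, -0.18 with the trend removed and -0.27 to 0.22 with 1 library left out. Col9a3 was -0.21 to 0.08 in LIF with 1 left out, and after differentiation 0.02 with median-of-ratios scaling and -0.12 to 0.03 with 1 left out. Its difference was -0.07 with the trend removed and -0.13 to 0.16 with 1 left out. After differentiation Col16a1 was -0.22 to 0.06, Col6a1 -0.05 to 0.21 and Col7a1 -0.39 to 0.10 with 1 left out, and the Col1a1 difference was -0.29 to 0.07. The cause was not tested. FPKM rescaled to sum to 1000000 per library gave 22, 12, 15, 14 and 18 members at 1 or more in ES cells, LIF controls, LIF KO, differentiated controls and differentiated KO. Unknown depth limits what can be said of the 21 members below 1 FPKM in every group mean.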

Other observations

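Among low members that the report does not describe, Col12a1, a fibril-associated chain of dense connective tissue picked out after its values were seen, read 1.22, 0.735 and 1.07 FPKM in ES cells and 0.172, 0.149 and 0.244 in the LIF controls. In the LIF KO it read 0.198, 0.460 and 0.555, with overlap. After differentiation it read 0.0554, 0.0531 and 0.0648 in the controls and 0.258, 0.322 and 0.700 in the KO, without overlap, and it was below the minimum for testing. Col8a1, a network-forming chain of blood vessels and cornea, read 0.165, 0.168 and 0.173 in the LIF controls and 0.252, 0.472 and 0.478 in the KO. Its differentiated libraries read 0.0883, 0.0766 and 0.292 in the controls and 0.352, 0.364 and 0.585 in the KO, so the KO lay above the control in both conditions. Col10a1, the chain of growth plate cartilage, lay at or below 0.0528 in the LIF controls and between 0.119 and 0.212 in the LIF KO, with 4 other genes annotated over its locus. After differentiation it was at 0 in the controls and at most 0.0192 in the KO, with overlap. Col8a1 and Col10a1 were also picked out after their values were seen. Over all genes not listed at 0 throughout, the KO lay above the control for 8.77% in LIF and 17.8% after differentiation.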
